A study of Mus musculus with 12 samples.

Results

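The comparison described here sets Myc-CaP cells that received a low dose of interferon γ (IFNγ) together with oxaliplatin (Oxali) against cells that received a high dose of IFNγ alone. Myc-CaP is an established mouse prostate cancer cell line of FVB/NJ origin in which MYC is overexpressed, and Oxali is a platinum drug that crosslinks DNA. The 2 libraries titled with 200 pg IFNγ plus 2 μM Oxali (Combo200) were compared with the 2 libraries titled with 2000 pg IFNγ (IFN2000), both after 48 h, so that 4 of the 12 libraries of the series entered the comparison itself. The other libraries, also 2 per group at 48 h, were untreated cells (Ctrl), cells given 200 pg IFNγ (IFN200), cells given 2 μM Oxali (Oxali) and cells given 2000 pg IFNγ plus 2 μM Oxali (Combo2000). The labels give the IFNγ dose without a volume. All groups are 1 cell line, and nothing in the labels says whether libraries of a group came from separate cultures, so p-values measure the spread between these libraries, which may be technical. The question was for which interferon genes the low dose with Oxali lay above, at or below the level reached with the high dose. It was asked of 145 genes on 13 lists of interferon genes, of which 125 passed the filter on low counts.

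IFNγ binds a receptor made of IFNGR1 and IFNGR2, which are bound inside the cell by the kinases JAK1 and JAK2. The signal passes to the nucleus, where it acts through the gamma activated site (GAS) and switches on further regulators such as IRF1 and NLRC5. IRF1 binds the interferon stimulated response element (ISRE), and NF-κB factors bind the κB site. The genes switched on in this way build the machinery of antigen processing and presentation through major histocompatibility complex class I (MHC-I): immunoproteasome subunits cut proteins into peptides, transporters carry them into the endoplasmic reticulum, and tapasin (encoded by Tapbp) loads them on MHC-I.

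Library totals ran from 18749975 to 25931516 counts and were 24367284 and 23496492 in IFN2000 and 21982445 and 24971915 in Combo200. A count of 0 allows up to 3 counts, which is 0.111 to 0.167 CPM (counts relative to the library total, scaled by TMM) depending on the library, and this limit covers counting error only. Labels conflict for the single treatments: the libraries titled 2000 pg IFNγ carry a second label, the agent, that names 200 pg IFNγ, those titled 200 pg carry the agent Oxali, and those titled Oxali carry the agent IFNγ 2000 pg. Titles were used throughout, and the comparison would set Combo200 against the same low dose without Oxali if the agent labels were right. The mean log2 ratio to Ctrl of 18 p53 targets, which DNA damage is known to raise, stood at -0.058 to 0.016 in the 4 libraries titled with IFNγ alone. It was 0.294 and 0.339 where the title named Oxali alone. The targets moved both ways, with 9 (50%) called higher and 6 (33.3%) lower in Oxali than in Ctrl and a median of 0.188. Over all genes 34.8% were called higher and 32.8% lower, so these targets are a weak check of the labels. Of all 13177 genes, 8911 were called between the libraries titled Oxali and Ctrl, and 241 between those titled Oxali and Combo200. Between the libraries titled 200 pg IFNγ and Ctrl 15 were called. By these counts the libraries titled Oxali lay nearer to Combo200 than to Ctrl, and those titled 200 pg lay near Ctrl. Which of the 2 doses the other labels mean was read only from the levels of the interferon genes, which are also the outcome. The IFN2000 replicate 2 library stood apart in markers of T cells, whose summed level over 15 genes was 19.4 CPM there with 13 genes above 3 counts, 1.29 CPM in IFN2000 replicate 3 and 0.574 to 3.17 CPM in the other 10 libraries. That library is part of every value for IFN2000. Values without it are given for the count of interferon genes called higher, for Irf8 and for the difference of responses. Other results are given with both libraries or as ranges over each library left out. The 2 IFN2000 libraries also differed from Ctrl along transcript length, with Spearman correlations across 13043 genes of -0.347 and -0.187 against -0.0158 to 0.148 in the other libraries, and the part of this trend in the comparison was not tested beyond a refit with a length and GC offset. Of the prostate epithelial markers, Hoxb13 was read at 44.3 and 40.3 CPM in Ctrl and Krt8 at 19.6 and 20.2 CPM in Ctrl, whereas Krt18, Epcam and Cdh1 did not pass the filter.

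Promoters are shown for genes at different places of the comparison, to let the motifs be read beside the values. Each line gives the 250 bases before the start of transcription from RefSeq (GRCm38.p6), 5′ to 3′ on the strand of the gene, and capitals mark motifs found on either strand: a GAS (TTC and GAA with 3 bases between them), an ISRE (TTTC and TTTC with 2 bases between them) or a κB site (GGGA and TTCC with 2 bases between them). Gbp2 (chr3:142620413-142620662, plus strand) and Gbp5 (chr3:142496684-142496933, plus strand) encode guanylate binding proteins, GTPases that attack vacuoles holding microbes. B2m (chr2:122147437-122147686, plus strand) encodes the light chain of MHC-I, Psmb8 (chr17:34197945-34198194, plus strand) an immunoproteasome subunit and Cxcl10 (chr5:92348890-92349139, minus strand) a chemokine that attracts T cells. Ifngr2 (chr16:91546809-91547058, plus strand) encodes the signalling chain of the IFNγ receptor, and Irgm1 (chr11:48871421-48871670, minus strand) an immunity related GTPase whose level lay close between the groups.
Gbp2: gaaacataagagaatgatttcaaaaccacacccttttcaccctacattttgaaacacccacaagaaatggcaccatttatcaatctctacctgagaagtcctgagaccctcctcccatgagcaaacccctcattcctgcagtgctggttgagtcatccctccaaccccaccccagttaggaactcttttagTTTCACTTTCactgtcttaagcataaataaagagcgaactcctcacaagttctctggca
Gbp5: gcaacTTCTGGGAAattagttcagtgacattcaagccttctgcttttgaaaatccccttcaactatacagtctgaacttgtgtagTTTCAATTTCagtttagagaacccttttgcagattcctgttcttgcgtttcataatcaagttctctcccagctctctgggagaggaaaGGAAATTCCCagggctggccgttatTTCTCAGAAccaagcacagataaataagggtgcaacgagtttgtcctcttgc
B2m: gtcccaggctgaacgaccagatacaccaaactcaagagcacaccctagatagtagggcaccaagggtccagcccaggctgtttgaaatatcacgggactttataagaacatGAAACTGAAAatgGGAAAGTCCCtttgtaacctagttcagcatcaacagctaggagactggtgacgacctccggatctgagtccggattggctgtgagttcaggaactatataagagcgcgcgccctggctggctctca
Psmb8: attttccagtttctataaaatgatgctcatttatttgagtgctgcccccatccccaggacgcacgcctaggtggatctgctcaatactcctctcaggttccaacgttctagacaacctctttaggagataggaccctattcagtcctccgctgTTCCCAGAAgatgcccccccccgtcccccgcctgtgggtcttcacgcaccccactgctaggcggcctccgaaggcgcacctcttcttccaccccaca
Cxcl10: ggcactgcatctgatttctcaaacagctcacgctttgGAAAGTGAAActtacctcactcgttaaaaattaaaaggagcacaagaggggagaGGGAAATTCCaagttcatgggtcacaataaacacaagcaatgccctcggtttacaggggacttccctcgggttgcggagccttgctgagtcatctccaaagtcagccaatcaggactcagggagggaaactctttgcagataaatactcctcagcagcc
Ifngr2: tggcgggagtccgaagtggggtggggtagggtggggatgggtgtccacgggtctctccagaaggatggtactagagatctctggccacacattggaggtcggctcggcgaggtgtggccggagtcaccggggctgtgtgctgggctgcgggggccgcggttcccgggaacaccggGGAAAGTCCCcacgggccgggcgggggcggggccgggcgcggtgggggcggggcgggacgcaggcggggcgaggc
Irgm1: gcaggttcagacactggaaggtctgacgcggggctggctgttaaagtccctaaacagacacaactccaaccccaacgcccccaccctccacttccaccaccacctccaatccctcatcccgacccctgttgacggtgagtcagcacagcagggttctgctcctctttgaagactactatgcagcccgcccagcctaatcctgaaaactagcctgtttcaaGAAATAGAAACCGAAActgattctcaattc
The Gbp2 sequence held an ISRE, with a κB site 7 bases past the start and so not printed, and the Gbp5 sequence held 2 GAS, an ISRE and a κB site. B2m and Cxcl10 each had an ISRE and a κB site, Psmb8 a GAS and Ifngr2 a κB site, while the 2 ISREs of Irgm1 overlapped. In windows of 300 bases, which run to 50 bases past the start, 35.9% of the 92 interferon genes with an entry held an ISRE, 26.1% a GAS and 7.61% a κB site, against 3.63%, 8.46% and 1.81% of the 9596 genes tested that had an entry. Among the 68 interferon genes that were called higher in Combo200 and not close, 41.2% held an ISRE and 23.5% a GAS, and among the 16 that were close 18.8% held an ISRE and 37.5% a GAS. Neither Tapbp nor Psmb10 held any of the 3 motifs in this window. A match is a run of letters, not a shown binding site.

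Low-dose IFNγ with Oxali gave higher levels than high-dose IFNγ for most interferon genes. Of the 125 tested, 105 (84%) were called higher in Combo200 and 8 (6.4%) lower with the quasi-likelihood test of edgeR at an adjusted p under 0.05, against 38.3% higher and 33.9% lower of all 13177 genes tested, 72.2% of which were called in either direction. At least 2-fold higher were 64 of the 125, against 12.2% of all genes, and at least 2-fold lower were 2, against 4.42%. A gene was taken as close where the 95% interval of the difference lay inside 1.5-fold in both directions, which held for 18 of the 125 (14.4%), against 45.6% of all genes. Some close genes, such as Canx, were hardly moved from Ctrl by the high dose alone. A further 9 of the 125 were neither called nor close. The median log2 difference was 1.14 over the 125 genes and 0.031 over all genes. In 13 of the 125 both IFN2000 libraries held 3 counts or fewer, and 10 of these were among those called higher. The filter on low counts ran over all groups, so such genes could pass it through groups where they were high. They could hardly have been called lower, which tilts the count towards higher. With these 13 set at the bound that 3 counts per library allow, where 2 had none to give, the median was 1.06 over 123 genes. Both Combo200 libraries lay above both IFN2000 libraries for 112 of the 125 genes (89.6%), against 44.9% of all genes, and both lay below for 10 (8%), against 40.4%. Over all 13177 genes only 1933 overlapped, so groups that lie apart are common. Where the groups are said below to be apart for single genes, this describes levels only. In bulk RNA, more cells with a transcript and more of it per cell cannot be told apart. Without IFN2000 replicate 2, 99 of 126 tested were called higher.

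**Figure D1:**
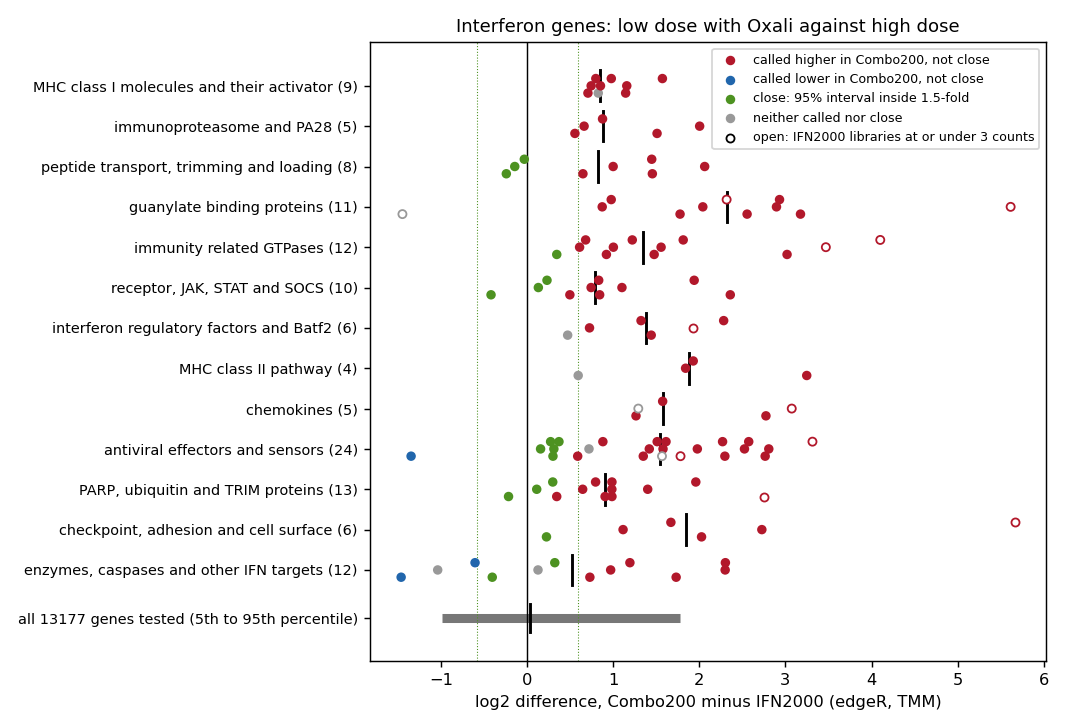
Log2 difference of Combo200 minus IFN2000 (x axis) for each tested gene of the 13 interferon lists (rows, number of genes tested in brackets); points are genes, coloured by call, open where both IFN2000 libraries held 3 counts or fewer, black bars are list medians and the grey bar spans the 5th to 95th percentile of all 13177 genes (-0.986 to 1.78). Dotted lines mark 1.5-fold, and the medians of all 13 lists lie to the right of 0, from 0.524 for the enzymes to 2.32 for the guanylate binding proteins.

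The genes named as highest or lowest of a list are those whose mean reached 1 log2 CPM, so that some rarer members lay further out. The 3 genes given as markers of the comparison all rose. Tapbp (chr17:33915899-33929292, plus strand) encodes tapasin, and its level was 149.5 and 149 CPM in IFN2000 and 409 and 409 CPM in Combo200, a log2 difference of 1.45 (SE 0.038, edgeR adjusted p = 5.62e-17). Psmb10 (chr8:105935735-105938444, minus strand), an immunoproteasome subunit, was read at 75 and 70.4 CPM in IFN2000 and 131 and 136 CPM in Combo200, with a log2 difference of 0.87 (SE 0.048, edgeR adjusted p = 3.09e-12). For Gbp2 (chr3:142620602-142638008, plus strand) the libraries gave 30.6 and 30.8 CPM in IFN2000 and 57.4 and 63.2 CPM in Combo200, a log2 difference of 0.98 (SE 0.061, edgeR adjusted p = 1.9e-11). The groups did not overlap for any of the 3 genes, as was the case for most genes tested. The 3 genes differed in how they reached that level. Oxali without IFNγ already put Tapbp above the high dose of IFNγ, at 204 and 197 CPM. Psmb10 stayed under it with either agent alone, at 48.9 and 50.7 CPM in Oxali and 34.2 and 35.6 CPM in IFN200. So did Gbp2, at 3.36 and 2.86 CPM in Oxali and 3.3 and 2.25 CPM in IFN200. Gbp2 reached 286 and 293 CPM in Combo2000, so the low dose with Oxali did not bring this gene near its highest level, whereas Tapbp stood at 506 and 509.8 CPM in Combo2000.

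**Figure D2:**
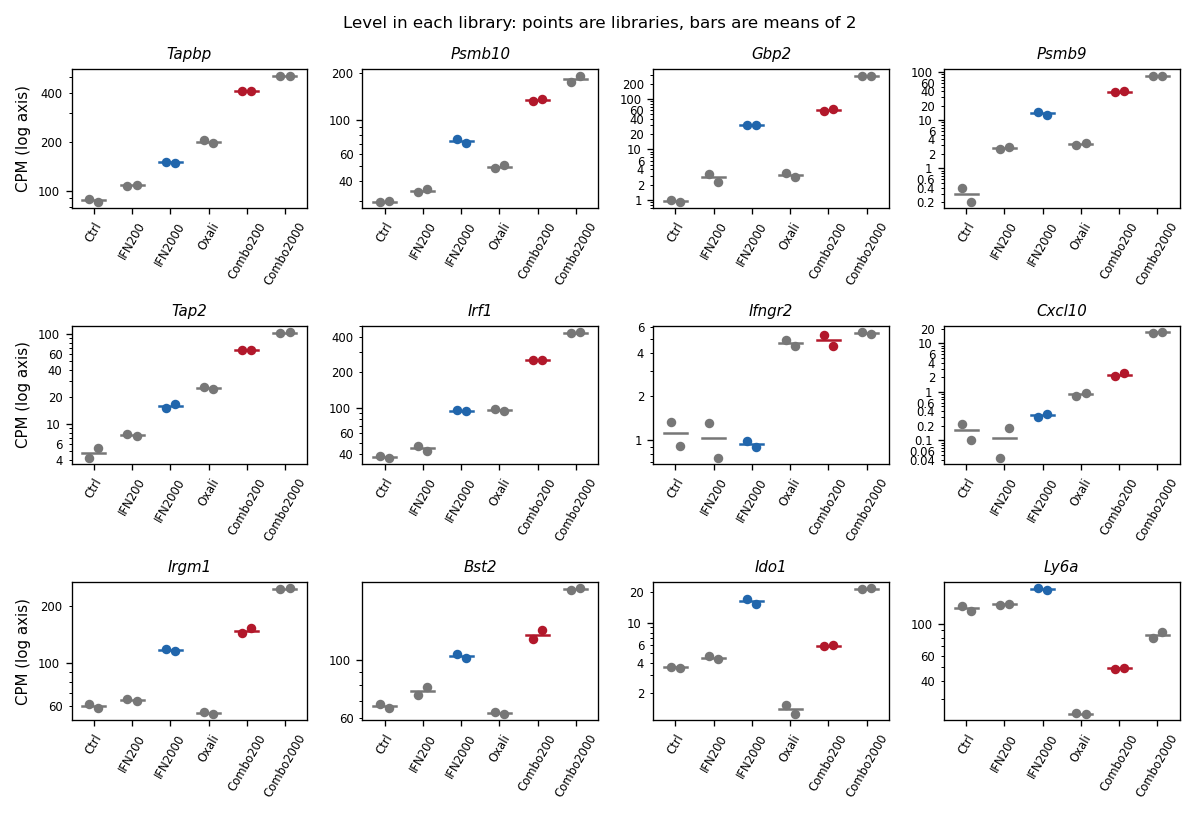
Level in CPM (log axis, scaled per gene) of 12 genes in every library of the 6 groups; points are libraries and bars the mean of 2. Tapbp in Oxali lies above IFN2000 in blue, Psmb10, Gbp2 and Psmb9 in Oxali lie below it and only Combo200 in red and Combo2000 exceed it, and Ido1 and Ly6a in Combo200 lie below IFN2000. Psmb9 and Bst2 were added after their values were seen.

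Genes of MHC-I antigen processing were higher in Combo200 by moderate amounts. All 5 immunoproteasome and PA28 genes were called higher, with a median log2 difference of 0.875. For Psmb8 the levels were 6.29 and 4.96 CPM in IFN2000 and 22.2 and 23 CPM in Combo200, the largest difference of that list at 2.00 (SE 0.098, edgeR adjusted p = 4.8e-13). Psme1, a subunit of the PA28 cap of the proteasome, had the smallest at 0.55 (SE 0.043), from 126 and 116 CPM in IFN2000 to 174 and 181 CPM in Combo200. Oxali alone was below IFN2000 in both libraries for all 5 genes of this list, against 40.2% of all genes tested. Combo200 was above IFN2000 in both libraries for all 5, against 44.9% of all genes tested. Of the 9 MHC-I molecules and activator genes tested, 8 were called higher, with a median of 0.851. That median ran from 0.708 to 1.20 with 1 library left out at a time. B2m rose the least of those called, from 817 and 769 CPM in IFN2000 to 1274 and 1311 CPM in Combo200, a log2 difference of 0.71 (SE 0.037, edgeR adjusted p = 1.34e-12). Nlrc5, the activator of MHC-I genes, rose the most, from 3.17 and 2.68 CPM in IFN2000 to 9.73 and 7.77 CPM in Combo200, by 1.57 (SE 0.16) on the log2 scale. Its levels were 0.111 and 0 CPM in Ctrl, 0.695 and 0.398 CPM in IFN200 and 0.138 and 0.0954 CPM in Oxali, all under those of IFN2000. Reads of the H2 genes can fit several members of that family, so their values are uncertain, and without those and other genes with near copies or overlapping ends 88 of 107 interferon genes were called higher.

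In the list of peptide transport, trimming and loading, 5 of 8 were called higher and 2 lower, and 3 were close. Tap2, one chain of the peptide transporter, was highest in this list, at 15.1 and 16.7 CPM in IFN2000 and 65.7 and 66.9 CPM in Combo200, a log2 difference of 2.06 (SE 0.063, edgeR adjusted p = 4.75e-16). In contrast, the 3 general chaperones of the list lay close. The high dose alone moved them little from Ctrl, by -0.045 for Canx, 0.022 for Pdia3 and 0.11 for Calr on the log2 scale. There was thus little response to match, and being close does not show here that Oxali stood in for the high dose. Canx (calnexin) was read at 1614 and 1660 CPM in IFN2000 and 1587 and 1611 CPM in Combo200, where Combo200 lay just below IFN2000 with a gap smaller than the spread within either group, a log2 difference of -0.034 (SE 0.029), an edgeR adjusted p of 0.297 and an interval of -0.094 to 0.026. Pdia3, which forms disulfide bonds in the loading complex, was called lower at -0.24 (SE 0.036), from 887 and 861 CPM in IFN2000 to 721 and 756 CPM in Combo200, and Calr (calreticulin) at -0.14 (SE 0.037). Canx is called higher, by 0.087, when libraries are scaled by their totals alone.

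Genes that carry the IFNγ signal were mostly higher as well. Of 10 receptor, JAK, STAT and SOCS genes, 9 were called higher and 1 lower, with a median of 0.786. Ifngr2, at 0.985 and 0.893 CPM in IFN2000 and 5.28 and 4.45 CPM in Combo200, had the largest difference of the list, 2.36 (SE 0.22, edgeR adjusted p = 9.4e-09). It stood at 4.88 and 4.44 CPM in Oxali and 1.33 and 0.912 CPM in Ctrl, so the libraries with Oxali lay together and those without lay together, whatever the IFNγ dose. Ifngr1, the ligand binding chain, showed the same order with a smaller step, 37.7 and 36.8 CPM in IFN2000 and 62.6 and 62.1 CPM in Combo200, and a log2 difference of 0.74 (SE 0.051). Stat3 was close, at 67.8 and 70.6 CPM in IFN2000 and 76.2 and 75.2 CPM in Combo200, a log2 difference of 0.13 (SE 0.043), and turns to -0.037 with a length and GC offset. Socs3, an inhibitor of cytokine receptors, was called lower at -0.42 (SE 0.068), from 40.9 and 41.8 CPM in IFN2000 to 31.8 and 30.0 CPM in Combo200.

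Of the 6 genes tested in the list of interferon regulatory factors and Batf2, 5 were called higher, with a median of 1.38. Irf1 had 94.6 and 93.9 CPM in IFN2000 and 258 and 254 CPM in Combo200, a log2 difference of 1.44 (SE 0.043, edgeR adjusted p = 3.24e-16). Oxali alone gave 96.3 and 94.1 CPM, about the level of the high dose of IFNγ, and the groups of Oxali and IFN2000 overlapped. Irf7, a factor of the type I interferon response, was highest in the list at 1.41 and 1.12 CPM in IFN2000 and 6.02 and 6.34 CPM in Combo200, a log2 difference of 2.28 (SE 0.18). Irf8 was not called and not close, at 1.84 and 0.893 CPM in IFN2000 and 2.05 and 1.78 CPM in Combo200, where the groups overlapped. Its log2 difference was 0.47 (SE 0.27) with an edgeR adjusted p of 0.13, and it was 1.08 with an adjusted p of 0.00625 without IFN2000 replicate 2, the library with T cell markers. Irf8 is used in lymphoid and myeloid cells, and whether the T cell signal bears on its value was not tested.

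GTPases that act against intracellular microbes were higher in Combo200, and the guanylate binding proteins had the highest median of the 13 lists. Of 11 guanylate binding protein genes, 10 were called higher, with a median of 2.32, or 1.91 over 10 genes with those at 3 counts or fewer set at their bound. With such bounds the lead was small. The medians were then 1.88 for the MHC class II pathway, 1.86 for chemokines and 1.85 for checkpoint, adhesion and surface genes. Gbp5 was read at 0.685 and 0.625 CPM in IFN2000 and 6.06 and 5.88 CPM in Combo200, a log2 difference of 3.17 (SE 0.22, edgeR adjusted p = 2.09e-10). Its level was 51.6 and 46 CPM in Combo2000, so the low dose with Oxali lay between the high dose and the full combination. All 12 immunity related GTPases were called higher, with a median of 1.35. Iigp1 had 5.18 and 5.27 CPM in IFN2000 and 18.1 and 18.6 CPM in Combo200 and a log2 difference of 1.81 (SE 0.10). With Oxali alone it was at 0.0921 and 0.143 CPM, at or near the limit that a count of 0 allows. Irgm1 was called higher but close, at 118 and 116 CPM in IFN2000 and 143 and 154 CPM in Combo200, with a log2 difference of 0.34 (SE 0.042) and an interval of 0.26 to 0.43. It is the one member of the list for which the low dose with Oxali came within 1.5-fold of the high dose. Oxali alone was below IFN2000 for 9 of the 12 genes of this list. Near copies within both families make single members uncertain.

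Chemokines and surface proteins were mostly higher in Combo200. Of 5 chemokine genes tested, 4 were called higher. Cxcl10 was read at 0.3 and 0.357 CPM in IFN2000 and 2.14 and 2.4 CPM in Combo200, a log2 difference of 2.77 (SE 0.30, edgeR adjusted p = 7.08e-08). Cx3cl1, a membrane-bound chemokine, was at 7.5 and 8.26 CPM in IFN2000 and 23.7 and 23.1 CPM in Combo200, a log2 difference of 1.57 (SE 0.091), and at 24.7 and 21.7 CPM in Oxali and 24.8 and 27.6 CPM in Combo2000. Its level with Oxali thus hardly moved with the IFNγ dose. Of 8 MHC class II pathway genes 4 were tested and 3 called higher, Ciita was not called at 0.59 (SE 0.63), and H2-Aa, H2-Ab1 and H2-Eb1, which encode class II chains, had no count in Combo200. For Cd74, the invariant chain of MHC class II, the libraries gave 0.385 and 0.357 CPM in IFN2000 and 4.32 and 2.9 CPM in Combo200, a log2 difference of 3.25 (SE 0.30). H2-DMa, which edits class II peptides, was at 0.771 and 0.759 CPM in IFN2000 and 2.75 and 3.09 CPM in Combo200, a log2 difference of 1.93 (SE 0.25). Groups were apart for Cxcl10, Cx3cl1, Cd74 and H2-DMa. Vcam1, an adhesion molecule, was at 0.129 and 0.0446 CPM in IFN2000 and 4.97 and 4.48 CPM in Combo200. Both IFN2000 libraries held 3 counts or fewer, which makes Combo200 at least 36-fold higher. It was at 3.78 and 4.2 CPM in Oxali. In the list of checkpoint, adhesion and surface genes 5 of 6 were called higher, and Oxali alone was above IFN2000 in both libraries for those 5. The one that was not, Il18bp, a secreted binder of interleukin 18, was close, at 3.43 and 3.48 CPM in IFN2000 and 3.71 and 4.33 CPM in Combo200, a log2 difference of 0.22 (SE 0.17), and stood lower with Oxali alone, at 1.24 and 0.668 CPM.

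Antiviral genes showed all outcomes. Of 24 effectors and sensors 21 were called higher and 1 lower, with a median of 1.54, and 5 were close. Usp18, which removes ISG15 from proteins and dampens interferon signalling, was highest with 0.857 and 0.58 CPM in IFN2000 and 4.8 and 5.33 CPM in Combo200, a log2 difference of 2.81 (SE 0.21, edgeR adjusted p = 3.83e-10). Isg20, an exonuclease, was closest, at 116 and 114 CPM in IFN2000 and 126 and 129 CPM in Combo200, with 0.16 (SE 0.057) and an interval of 0.036 to 0.27. Groups did not overlap for either gene. Among 13 PARP, ubiquitin and TRIM genes, 11 were called higher and 1 lower. The ubiquitin ligase gene Herc6 was at 7.62 and 8.04 CPM in IFN2000 and 31.1 and 29.8 CPM in Combo200, a log2 difference of 1.96 (SE 0.09). Rnf114, another ubiquitin ligase gene, was close and not called, at 66.3 and 66.2 CPM in IFN2000 and 71 and 72.1 CPM in Combo200, a log2 difference of 0.11 (SE 0.057), and Trim25, which activates the RNA sensor RIG-I, was close and called lower at 70.2 and 71.5 CPM in IFN2000 and 61.7 and 60.3 CPM in Combo200, a log2 difference of -0.22 (SE 0.046).

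Few interferon genes were lower in Combo200. Only Ido1, Dhx58 and Lap3 were called lower and not close, and Wars, Socs3, Pdia3, Calr and Trim25 were called lower within 1.5-fold. Ido1 encodes an enzyme that breaks down tryptophan, and its level was 17.1 and 15.4 CPM in IFN2000 and 5.84 and 5.95 CPM in Combo200, a log2 difference of -1.46 (SE 0.094, edgeR adjusted p = 3.19e-11). It stood at 3.67 and 3.6 CPM in Ctrl and 1.52 and 1.24 CPM in Oxali, so Oxali alone lay under Ctrl. The low dose with Oxali was nonetheless over Ctrl, and Combo2000 at 21.6 and 22.1 CPM was over IFN2000. Dhx58 encodes the RNA sensor LGP2 and was at 0.899 and 0.893 CPM in IFN2000 and 0.349 and 0.348 CPM in Combo200, a log2 difference of -1.35 (SE 0.36). For Lap3, an aminopeptidase, the libraries gave 243 and 237 CPM in IFN2000 and 154 and 161 CPM in Combo200, a log2 difference of -0.61 (SE 0.041). The groups were apart for all 3. In the same list of 12 enzymes, caspases and other targets, 7 were called higher. Tnfsf10, the death ligand TRAIL, was highest at 7.02 and 5.94 CPM in IFN2000 and 32.7 and 31.4 CPM in Combo200, a log2 difference of 2.30 (SE 0.086), and Casp8 was close, at 48 and 47.1 CPM in IFN2000 and 62.2 and 56.7 CPM in Combo200, a log2 difference of 0.32 (SE 0.055).

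A second choice of genes used no library of the comparison. Genes called at least 2-fold higher in Combo2000 than in Oxali were 156 of 13177 (1.18%), of which 87 were on the lists and 69 were not. Of the 156, 134 (85.9%) were called higher in Combo200 than in IFN2000 and 4 (2.56%) lower, against 38.3% and 33.9% of all genes, and 6 (3.85%) were close. The median log2 difference was 1.51, with no bound set for genes at 3 counts or fewer. The filter on low counts ran over all groups, so members could pass it through Combo2000 alone. Some, such as Gbp6 and Slc6a19, had no count in IFN2000 and could not have been called lower. The counts for this choice are therefore tilted towards higher. Since these genes were selected as those that respond to the high dose in the presence of Oxali, genes that respond to it only without Oxali could not be among them. Highest of those on no list, under the same limit, were C1s1 (a protease of the complement system), Gm4841 and Apol11a. C1s1 was read at 0.214 and 0.357 CPM in IFN2000 and 3.31 and 2.51 CPM in Combo200, a log2 difference of 3.32 (SE 0.32, edgeR adjusted p = 1.23e-08). Gm4841 was at 0.214 and 0.312 CPM in IFN2000 and 2.18 and 2.36 CPM in Combo200, a log2 difference of 3.09 (SE 0.32), and Apol11a at 0.471 and 0.58 CPM in IFN2000 and 4.01 and 3.4 CPM in Combo200, a log2 difference of 2.80 (SE 0.25). All 3 had no overlap between groups.

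The 4 genes of this choice called lower were Ido1, Ido2, Ly6a and Ly6c1. Ly6a, which encodes the surface protein Sca-1, was the furthest down, at 176 and 171 CPM in IFN2000 and 48.5 and 49.7 CPM in Combo200, a log2 difference of -1.82 (SE 0.05, edgeR adjusted p = 1.15e-16). Its levels were 132 and 123 CPM in Ctrl, 135 and 137 CPM in IFN200, 24.1 and 23.7 CPM in Oxali and 79.2 and 87.6 CPM in Combo2000. Every library with Oxali lay under every library without it, and within the libraries with Oxali the level was higher with more IFNγ. Ly6c1, of the same family, was at 99.2 and 95.7 CPM in IFN2000 and 60.7 and 65 CPM in Combo200, a log2 difference of -0.63 (SE 0.048). It was lower with Oxali alone than in Ctrl, at 43 and 39.5 CPM in Oxali and 76.9 and 79.4 CPM in Ctrl, but unlike Ly6a it lay above Ctrl in Combo2000, at 88.5 and 89.1 CPM. Ido2 was at 0.942 and 1.38 CPM in IFN2000 and 0.654 and 0.541 CPM in Combo200, a log2 difference of -0.96 (SE 0.31). The 6 close genes were Irgm1, Bst2, Parp9 and Il18bp of the lists and a pair on no list, of which 1110038F14Rik was the lower, at 29 and 24.9 CPM in IFN2000 and 29.2 and 30.9 CPM in Combo200, a log2 difference of 0.16 (SE 0.071). Bst2, which tethers budding virus particles, was at 105 and 101 CPM in IFN2000 and 119.9 and 129 CPM in Combo200, with 63.5 and 62.1 CPM in Oxali, and Parp9 was at 52.1 and 52.9 CPM in IFN2000 and 63.7 and 65.2 CPM in Combo200.

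The change made by Oxali alone shares no library with the comparison and was set beside it. Of the 125 interferon genes, 78 were called higher in Oxali than in Ctrl (62.4%, against 34.8% of all genes), and all 78 were called higher in Combo200 than in IFN2000, as were 90.8% of all 4590 genes called higher with Oxali. Of the 10 called lower with Oxali (8%, against 32.8% of all genes), 7 were called lower in Combo200 than in IFN2000 and 2 higher, against 88% and 0.625% of all genes called lower with Oxali. The 37 not called with Oxali held 25 called higher and 1 lower, against 19.9% and 15.4% of all genes not called with Oxali. In the 156 genes chosen in other libraries, 93 were called higher with Oxali and all 93 were called higher in the comparison, which is to be read against the same 90.8% over all genes, while of the 8 called lower with Oxali 4 were called lower and 2 higher. Across genes the 2 log2 changes had a Pearson correlation of 0.863 over 13177 genes, 0.584 over the 125 and 0.507 over the 156; genes are not independent replicates, and the values describe these 8 libraries.

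**Figure D3:**
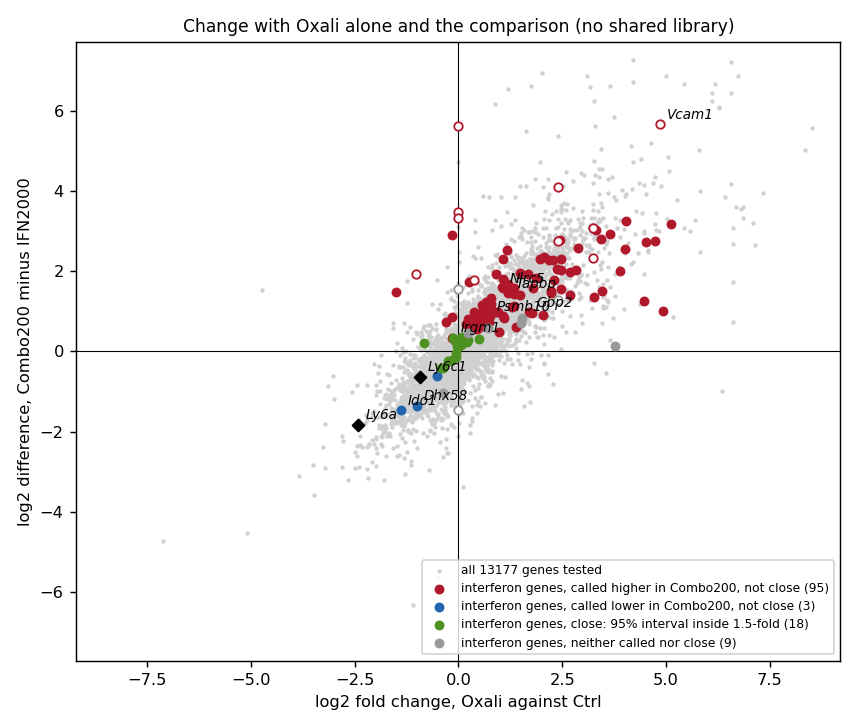
Log2 fold change of Oxali against Ctrl (x axis) and log2 difference of Combo200 minus IFN2000 (y axis) for all 13177 genes tested (grey) and the 125 interferon genes (coloured by call, open where both IFN2000 libraries held 3 counts or fewer); black diamonds are Ly6a and Ly6c1. The 3 interferon genes called lower and not close (blue) and both diamonds lie to the left of 0, and the 5 interferon genes with no count in Oxali and Ctrl lie on the vertical line at 0.

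Set against the high dose, Oxali alone split the interferon genes much as it split all genes. For 49 of the 125 (39.2%) both Oxali libraries lay above both IFN2000 libraries, against 43.5% of all genes, for 49 (39.2%) both lay below, against 40.2%, and 27 overlapped. All 49 that Oxali alone put above the high dose were also above it in Combo200, as were 93.1% of such genes over all genes tested. Of the 112 genes above the high dose in Combo200, the other 63 (56.2%) were not above it with Oxali alone, against 9.87% of such genes over all genes, and 39 (34.8%) were below it, against 1.49%. Both orders use the same IFN2000 libraries, so these counts describe levels and are not independent. By role, Oxali alone was above the high dose for 5 of 6 checkpoint, adhesion and surface genes and 6 of 10 receptor, JAK, STAT and SOCS genes. For antiviral genes it was above in 12 of 24 (50%), near the 43.5% of all genes. Oxali alone was above the high dose for 1 of 12 immunity related GTPases, 2 of 11 guanylate binding proteins and none of the 5 immunoproteasome and PA28 genes. The low dose alone was far from the high dose: 14 of the 125 genes were called higher in IFN200 than in Ctrl (11.2%, against 0.114% of all genes), compared with 67 in IFN2000 (53.6%, against 8.39%), and 110 in Combo200 (88%, against 35.6%).

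To take the change made by Oxali alone out of the comparison, the log2 response to the low dose with Oxali present (Combo200 against Oxali) was set against the log2 response to the high dose without it (IFN2000 against Ctrl). Called higher with Oxali were 20 of the 125 genes (16%, against 3.07% of all genes) and lower 5 (4%, against 1.43%), the difference was inside 1.5-fold for 46 (36.8%, against 69.5%), and the median was 0.0876. For 64 genes the data left it neither called nor close, and 33 of these had 3 counts or fewer in both Ctrl libraries. B2m rose more with the low dose and Oxali than with the high dose alone, by 0.40 (SE 0.052, edgeR adjusted p = 0.000253) on the log2 scale. Irgm1 did by 0.47 (SE 0.065) and Tapbp by 0.26 (SE 0.054, edgeR adjusted p = 0.0137). In these genes the low dose with Oxali gave the larger response per starting level. Psmb8 and Psmb9 were the opposite, at -1.89 (SE 0.41, edgeR adjusted p = 0.0162) and -1.94 (SE 0.33). Their starting level differed, since Psmb9 was at 0.389 and 0.203 CPM in Ctrl and 3.04 and 3.44 CPM in Oxali. In Ctrl, Psmb8 had 4 and 4 counts and Psmb9 had 7 and 4, so both responses without Oxali rest on few counts. The other 3 called lower were Irgm2 at -0.91 (SE 0.21), Igtp at -0.79 (SE 0.19) and Lgals3bp at -0.72 (SE 0.17). Psmb10 and Gbp2 were not called, at 0.12 (SE 0.079) and -0.73 (SE 0.26).

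**Figure D4:**
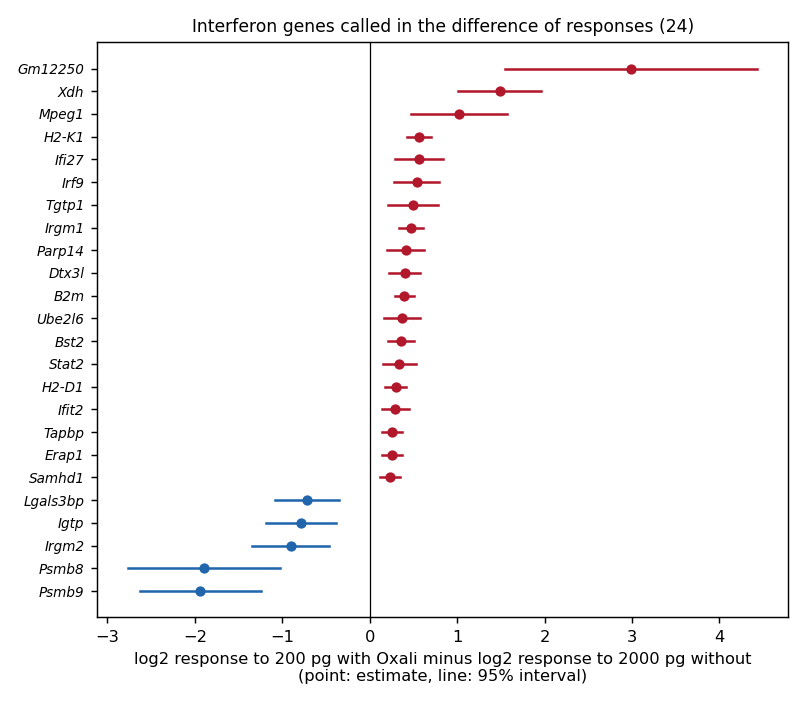
Of the 25 interferon genes called in the difference of responses, 24 are plotted; the x axis is the log2 response to 200 pg with Oxali minus the log2 response to 2000 pg without it, points are estimates and lines 95% intervals. The 19 genes in red lie to the right of 0, most under 1 log2 unit, and the 5 in blue to the left, with Psmb8 and Psmb9 the furthest at -1.89 and -1.94. Psmb8 and Psmb9 had 7 counts or fewer in each Ctrl library.

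That result is tied to the log2 scale and to single libraries. On increments in CPM both Combo200 libraries exceeded the Oxali mean plus the rise from Ctrl to IFN2000 for 104 of the 125 genes, Psmb8 and Psmb9 among them, and fell below it for 13, with no test. The 20 called higher fell to 5 without Ctrl replicate 1, 6 without Combo200 replicate 3, 8 without Oxali replicate 2, 9 without Combo200 replicate 2, 11 without Ctrl replicate 2 or IFN2000 replicate 2 and 13 without Oxali replicate 1. It was 20 without IFN2000 replicate 3, where 7 were called lower, and the count called lower ran from 0 to 7 over all libraries left out. Dropping a library left a group of 1, which was assumed to vary like the other groups.

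Targets of 2 other pathways were read for context. NF-κB answers inflammatory signals and DNA damage, and p53 answers DNA damage. Of 12 NF-κB targets tested, 10 (83.3%) were called higher in Combo200 and 1 (8.33%) lower, against 38.3% and 33.9% of all genes. Their median log2 difference was 1.07. Relb was at 4.88 and 3.26 CPM in IFN2000 and 43.1 and 38.4 CPM in Combo200, a log2 difference of 3.31 (SE 0.11), and Nfkb2 at 49.3 and 45.8 CPM in IFN2000 and 195 and 192 CPM in Combo200, a log2 difference of 2.03 (SE 0.044). Cxcl1, a chemokine for neutrophils, was lower at 3.81 and 3.44 CPM in IFN2000 and 1.96 and 1.66 CPM in Combo200, a log2 difference of -1.0 (SE 0.19). Of 18 p53 targets, 10 (55.6%) were called higher and 7 (38.9%) lower, against the same 38.3% and 33.9% of all genes. Their median was 0.413. Trp53inp1, which promotes p53-dependent cell death, was highest at 2.27 and 3.35 CPM in IFN2000 and 15.4 and 15.2 CPM in Combo200, a log2 difference of 2.45 (SE 0.15), Cdkn1a (the cell cycle inhibitor p21) was at 29.2 and 30.3 CPM in IFN2000 and 50.4 and 50.5 CPM in Combo200, a log2 difference of 0.76 (SE 0.055), and the death effector Bax was lowest at 83.3 and 80.5 CPM in IFN2000 and 45.5 and 45.3 CPM in Combo200, a log2 difference of -0.85 (SE 0.045). All libraries of the 2 groups were apart for these 6 genes, as for most genes tested, of which 44.9% lay above and 40.4% below.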

How the data were processed

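The deposited table holds unnormalized counts by gene, made by the authors from 12 RNA-seq libraries of poly(A) RNA made with a stranded kit. The submitters' processing notes name STAR 2.7.3a, RSEM 1.3.0 and build GRCm38, and the study's methods name featureCounts; the strand setting is not given in the sources used here, so overlapping genes may share reads. Of 55216 genes, 28300 had no count. Counts were filtered with filterByExpr (minimum count 10, minimum total 15), scaled by TMM and tested in edgeR 4.0.16 (R 4.3.3) by quasi-likelihood, with all 12 libraries in one model and a mean per group. A call needed a p under 0.05 after Benjamini-Hochberg adjustment over the 13177 tested. CPM use the same scaling, and SE is the log2 difference divided by the root of F. The smallest two-sided p of an exact permutation test is 0.333 for groups of 2. On simulated data the fit recovered 99% of 99 genes changed by 1 log2 unit and 86% of 100 changed by 0.5.

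The members and lists were chosen with earlier results of these data known. Genes named are the 3 markers, fixed regulators and, from each list, if the mean reached 1 log2 CPM, the highest, the lowest and the closest; among genes on no list chosen in other libraries, the 3 highest and 3 lowest; and counted members of 5 or fewer. Others (Psmb9, Bst2, Parp9 and the prostate markers) were named after their values were seen. Some genes are not reported here by name and stay in counts. Gene positions are from GENCODE M21 on GRCm38. Alternatives covered scaling, filters, DESeq2 1.42.0, the replicate block, a length and GC offset and each library left out.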

Additional observations from a re-analysis of the deposited data

Results flagged for a closer look

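Markers of T cells summed to 19.4 CPM in IFN2000 replicate 2, a library of the comparison, against 0.723 and 1.12 CPM in Ctrl. Markers of heart muscle summed to 9.64 CPM in IFN200 replicate 1, a library used here only for context.

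For 13 of the genes named, the log2 response to 200 pg with Oxali differed from the response to 2000 pg without it by the edgeR interaction test; dose and drug both differ between these responses and cannot be told apart. The log2 response with Oxali was larger for Ly6a by 0.595, 1110038F14Rik by 0.525, Irgm1 by 0.474, B2m by 0.395, Bst2 by 0.358, Ly6c1 by 0.291 and Tapbp by 0.256. It was smaller for Psmb9, at -1.94, Psmb8, at -1.89, Irgm2, at -0.906, Igtp, at -0.790, and Lgals3bp, at -0.718. For Trp53inp1 the difference was also positive, at 0.828, but without a clear rise from Oxali to Combo200. Its counts were 346 and 320 in Oxali and 353 and 394 in Combo200. They were 105 and 86 in Ctrl and 53 and 75 in IFN2000, so the level was lower with the high dose alone. The call was lost for Trp53inp1 in 9 of 21 other settings, each of which left out 1 library (largest edgeR adjusted p = 0.312), for Tapbp in 4 of 22 and for Psmb8 in 3 of 21, whereas B2m and Irgm1 were called in all 22. The other genes were not refitted one by one. Ly6a and Ly6c1 were both lower in Combo200 than in IFN2000 and on the log2 scale responded more to IFNγ from their lower starting level with Oxali. In CPM the rise of Ly6a with Oxali was the smaller one. It went from 24.1 and 23.7 CPM in Oxali to 48.5 and 49.7 CPM in Combo200. Without Oxali it went from 132 and 123 CPM in Ctrl to 176 and 171 CPM in IFN2000.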

How the results depend on the processing

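Among the interferon genes, the count called higher in Combo200 than in IFN2000 was 105 and the count called lower 8. Leaving out 1 library gave 96 to 104 and 8 to 10, and over all settings run the ranges were 84 to 107 and 6 to 10, with the lowest 84 where a mean of at least 50 counts left fewer genes to test. By DESeq2 it was 97. Scaling by library totals alone moved the median of all genes from 0.031 to 0.152 and the share of calls that were higher from 53% to 63.4%; there 107 interferon genes were called higher and Canx turned from -0.034 to 0.087. Stat3 turned from 0.13 to -0.037 with a length and GC offset, alone or with the replicate block. The close class follows its limit: at the narrower limit tried it held 8 interferon genes and 1 of the 156 chosen in other libraries, and at 2-fold 36 and 20. With a mean of at least 50 counts, 73 of 79 genes chosen in other libraries were called higher, and chosen at any fold, 311 of 444 were higher, 78 lower and 155 close. Leaving out 1 library, 110 to 128 of these genes were called higher, 3 to 4 lower and 4 to 7 were close, and 16 to 18 interferon genes were close.

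The difference of responses moved more. Called higher were 405 of all genes and lower 188; without a filter 674 and 294, and leaving out 1 library 61 to 698 and 16 to 588. Called lower were 348 with upper-quartile scaling and 289 with a length and GC offset, so the share of calls that were higher went from 68.3% to 45.5% with upper-quartile scaling and 56.3% with RLE size factors. DESeq2 called 217 higher, and of the interferon genes 13 higher and 3 lower. Leaving out 1 library gave 5 to 20 interferon genes higher, 0 to 7 lower and 36 to 44 close. On CPM increments, an alternative chosen after seeing the data, 104 lay above and 13 below.

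Replicate numbers do not pair these libraries: deviations of same-numbered libraries correlated at -0.0456 to 0.045 across genes, and at 0.017 between IFN2000 and Combo200. With the replicate block 103 interferon genes were called higher in the comparison, and 108 of all genes were called lower in the difference of responses. Depth limits genes near 3 counts, and 2 libraries per group limit every interval; the causes of these shifts were not tested.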
